A study of Homo sapiens with 4 samples.

Results

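The leukocyte tetraspanins examined here are 8 genes of the 27800 gene symbols measured, TSPAN32, CD9, CD37, CD53, CD63, CD81, CD82 and CD151, and all 8 were in the table. They were chosen by symbol with earlier results of the same libraries known, among them that TSPAN32 stood near the top of the protein-coding genes by unadjusted p in the comparison described below. Differences of these 8 genes between the groups are therefore given as descriptions with their errors and without a test. The cells were MOLM-13, an established human line of acute myeloid leukaemia with a KMT2A-MLLT3 fusion. Cells of every group received lentivirus carrying CRISPR-Cas9, either the vector labelled EV (2 libraries) or sgKAT6A (2 libraries), which targets the histone acetyltransferase gene KAT6A. What EV contains, the number of guides, and whether cells were cloned or kept as a pool are not stated in the labels. The labels also do not say whether replicates were separate cultures, so every error given rests on the spread between these libraries, which may be technical. Each SE of a difference also borrows from the spread of all genes tested (moderation by limma, described at the end). Levels are in TPM, transcript abundance normalized for length, which allows levels to be compared between genes. Each value is also a share of its library, so the values within a library depend on each other. TPM retains no read depth, so the depth is unknown and no counting error can be given.

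Tetraspanins are small proteins that cross the membrane several times and bind each other and partner proteins such as integrins, immune receptors and proteases, forming tetraspanin-enriched microdomains. In leukocytes they organise adhesion, migration, antigen receptor signalling and the sorting of cargo into endosomes and extracellular vesicles. CD37, CD53 and TSPAN32 are largely restricted to blood cells, whereas CD9, CD63, CD81, CD82 and CD151 are also made in many other tissues.

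The line and the target were checked first. KAT6A was at 16.2 and 16.7 TPM in replicates 1 and 2 of EV and 12.2 and 10.8 TPM in those of sgKAT6A, so both sgKAT6A libraries were lower, and the log2 difference was -0.48 ± 0.13 (SE; adjusted p = 0.784 by limma). Of 8 leukaemia line markers (PTPRC, CD33, SPI1, MPO, LYZ, FLT3, HOXA9 and MEIS1) all 8 were measured, with mean levels from 9.82 to 8901 TPM. B cell markers summed to between 0.515 and 1.00 TPM per library with MS4A1 and VPREB1 at 0, and megakaryocyte and platelet markers to between 1.47 and 2.55 TPM with PF4 and PPBP at 0. B cells are known for CD37 and CD81, and platelets for CD9. T and NK cell markers summed to 109 and 173 TPM with EV and 138 and 230 TPM with sgKAT6A, mostly from NKG7, with CD2 at 0. Erythroid markers summed to 149 and 414 TPM with EV and 394 and 248 TPM with sgKAT6A, so these groups overlapped. Epithelial and fibroblast markers summed to between 9.30 and 11.2 TPM. Monocyte markers are given beside CD9 below. The number of genes at 1 TPM or more ran from 12082 to 12630 per library. The share of TPM on protein-coding genes was 81.2% and 81.6% for EV and lower, 77.9% and 78.1%, for sgKAT6A.

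CD63 was the most abundant of the 8 transcripts and TSPAN32 the least. Averaged over the 4 libraries, CD63 was at 329 ± 49.1 TPM (SD, n = 4), CD37 at 137 ± 52.5, CD81 at 120 ± 27.7, CD53 at 99.1 ± 14.3, CD82 at 74.2 ± 20.5, CD151 at 55.9 ± 7.18, CD9 at 20.6 ± 22.8 and TSPAN32 at 6.15 ± 2.51 TPM. CD63 lay above CD37 in every library without overlap of their ranges, and CD151 above CD9 likewise, although by less than 2 TPM at the nearest point (49.99 against 48.2 TPM). CD37 and CD81 could not be ordered, since CD37 was the higher in 2 of the 4 libraries. The ranges of CD81 and CD53, of CD53 and CD82, and of CD82 and CD151 also overlapped, though CD53 was above CD82 within each of the 4 libraries. CD9 was above TSPAN32 in 2 libraries and below it in the other 2. Among the 12603 genes whose mean reached 1 TPM, the ones tested below, mean levels placed CD63 at percentile 97.7, CD37 at 94.4 and TSPAN32 at 30.9. Together the 8 transcripts summed to 665 and 841 TPM with EV and 807 and 1053 TPM with sgKAT6A, which overlap.

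**Figure D1:**
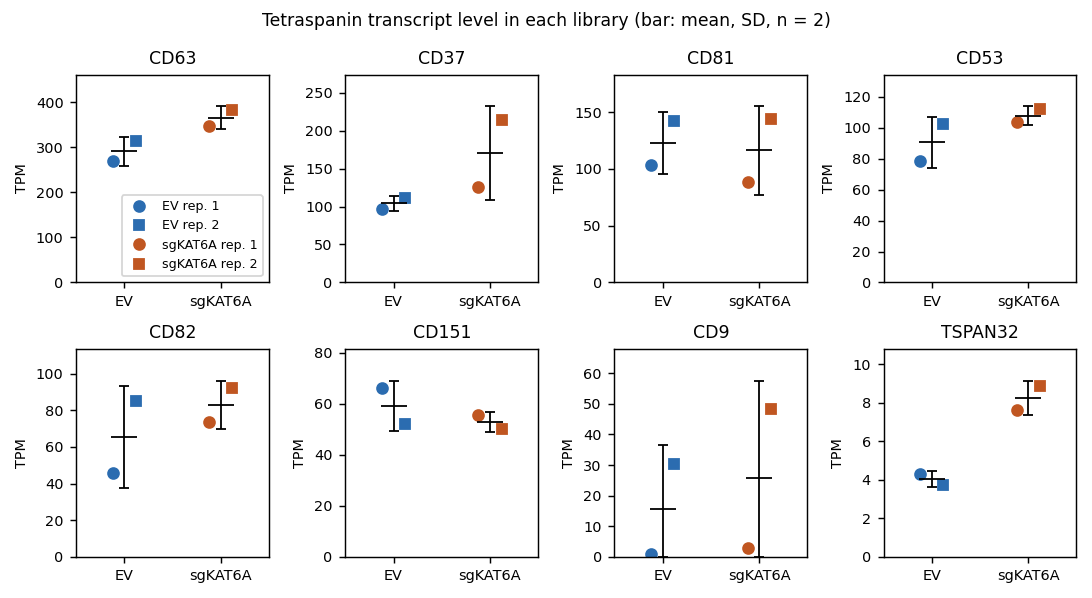
Level in TPM (vertical axis, starting at 0) of each of the 8 tetraspanins in the EV libraries (blue) and the sgKAT6A libraries (orange), with circles for replicate 1 and squares for replicate 2. Black bars are the mean and SD of 2 libraries, drawn down to no lower than 0. TSPAN32, CD37, CD63 and CD53 have both orange points above both blue points, and CD9 is split by replicate number in both groups.

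Between sgKAT6A and EV, 4 of the 8 tetraspanins, TSPAN32, CD37, CD63 and CD53, had both sgKAT6A libraries above both EV libraries, and 0 had both below. Of all 12603 genes tested, 14.4% were higher in this way and 23.2% were lower. That balance depends on the scaling, since 18.3% were higher and 18% lower after median-of-ratios scaling, and 19.5% higher and 16.2% lower when the table was restricted to protein-coding genes and rescaled. The count for the tetraspanins was 4 higher and 0 lower under each of these scalings. Because the genes were chosen with this comparison known, nothing is read from that count. The median log2 difference of the 8 genes was 0.37, against -0.02 for all genes tested. That median of the 8 was 0.044 without EV replicate 1 and 0.60 without EV replicate 2. For the same reason nothing is read from it. With limma, 0 of the 12603 genes (0%) had an adjusted p under 0.05, and 459 had an unadjusted p under 0.05.

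TSPAN32, also called PHEMX or TSSC6, encodes a tetraspanin of haematopoietic cells. It was at 4.32 and 3.75 TPM in replicates 1 and 2 of EV and 7.64 and 8.90 TPM in those of sgKAT6A. The 2 sgKAT6A libraries were high, the 2 EV libraries were low and the groups did not overlap. The sgKAT6A mean of 8.27 ± 0.888 TPM (SD, n = 2) was 2.05 times the EV mean of 4.03 ± 0.400 TPM (SD, n = 2). On the log2 scale used throughout, log2(TPM + 1), sgKAT6A exceeded EV by 0.88 ± 0.16 (SE). That was larger than the gap between the EV libraries (-0.16) and that between the sgKAT6A libraries (0.20). TSPAN32 was the member whose group difference exceeded its replicate gaps by the most, at 4.50 times the larger gap, and 563 of the 12603 genes tested had an absolute log2 difference at least as large. With 1 library left out at a time its difference ran from 0.78 to 0.98. TSPAN32 was known beforehand to stand near the top by unadjusted p in this comparison. Neither the ratio to the gap nor this range is therefore separate evidence of a difference. The pseudocount mattered for a transcript this low, with 1.02 at a pseudocount of 0.1 and 0.55 at a pseudocount of 5.

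CD37, a tetraspanin of B cells and myeloid cells that takes part in adhesion and survival signalling, was at 97.3 and 111 TPM with EV and 126 and 214 TPM with sgKAT6A. The groups did not overlap, but sgKAT6A replicate 2 stood apart from the other 3 libraries. The log2 difference was 0.65 ± 0.29 (SE), smaller than the gap of 0.76 between the sgKAT6A libraries. Leaving out sgKAT6A replicate 2 gave 0.28, and leaving out sgKAT6A replicate 1 gave 1.03.

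CD63, a tetraspanin of late endosomes, lysosomes and secretory granules, was at 269 and 314 TPM with EV and 348 and 384 TPM with sgKAT6A. Both sgKAT6A libraries were above both EV libraries. The log2 difference of 0.33 ± 0.14 (SE) exceeded the gaps of 0.22 and 0.14 within the groups, and it ran from 0.22 without EV replicate 1 to 0.44 without EV replicate 2. TSPAN32 was the other member whose group difference was larger than both replicate gaps. The share of all genes tested with this trait was not counted, so nothing is read from it.

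CD53, a pan-leukocyte tetraspanin, was at 78.6 and 102 TPM with EV and 103 and 112 TPM with sgKAT6A. EV replicate 1 was low, and the nearest values of the groups (102.3 in EV replicate 2 and 103.5 in sgKAT6A replicate 1) were almost the same. The log2 difference of 0.26 ± 0.17 (SE) was smaller than the gap of 0.37 between the EV libraries and was 0.07 without EV replicate 1. It was 0.45 without EV replicate 2.

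CD82, known as the metastasis suppressor KAI1, was at 45.7 and 84.9 TPM with EV and 73.9 and 92.5 TPM with sgKAT6A. EV replicate 1 was the low library, and the groups overlapped because sgKAT6A replicate 1 was below EV replicate 2. The log2 difference of 0.40 ± 0.35 (SE) was smaller than the EV gap of 0.88, and it was -0.04 without EV replicate 1 and 0.84 without EV replicate 2.

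CD81, a widely expressed tetraspanin that also serves as an entry receptor for hepatitis C virus, was at 104 and 142 TPM with EV and 88.9 and 144 TPM with sgKAT6A. The replicate 2 libraries of both groups were high and the replicate 1 libraries low, so the groups overlapped throughout. The log2 difference of -0.10 ± 0.31 (SE) changed sign with the library left out, being -0.45 without sgKAT6A replicate 2, 0.24 without sgKAT6A replicate 1 and 0.12 without EV replicate 2.

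CD151, which binds laminin-binding integrins, was at 66.2 and 52.1 TPM with EV and 55.5 and 49.99 TPM with sgKAT6A. EV replicate 1 was the high library and the other 3 lay within 6 TPM of each other. Its log2 difference of -0.15 ± 0.17 (SE) was smaller than the EV gap of -0.34 and was 0.01 without EV replicate 1. CD151 was the member with the narrowest range over the 4 libraries, 1.32-fold from lowest to highest.

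**Figure D2:**
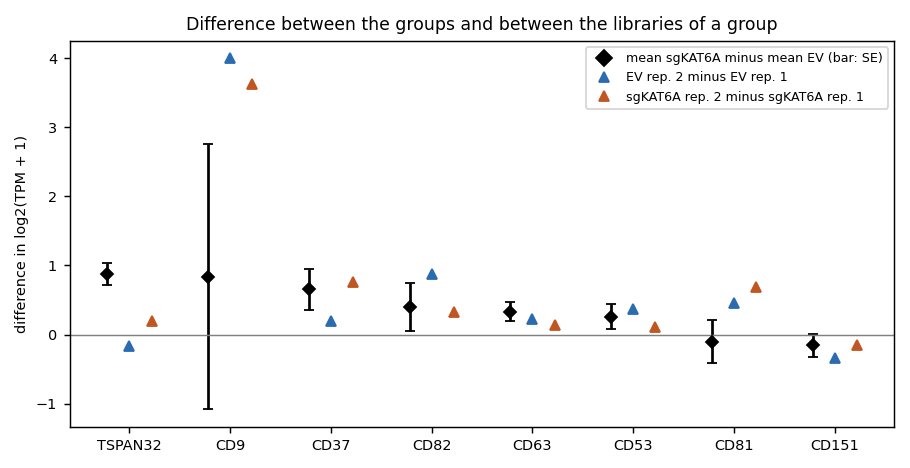
Difference in log2(TPM + 1) (vertical axis) for each tetraspanin, with the mean of sgKAT6A minus the mean of EV as black diamonds with SE, and the replicate 2 minus replicate 1 gap within EV (blue) and within sgKAT6A (orange) as triangles. The black diamond lies farther from 0 than both triangles for TSPAN32 (0.88) and CD63 (0.33), and the CD9 triangles reach 4.0 and 3.63.

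CD9, a tetraspanin of platelets, monocytes and many other cells that takes part in adhesion and membrane fusion, varied far more between the libraries of a group than between the groups. It was at 0.960 and 30.3 TPM in replicates 1 and 2 of EV and 2.98 and 48.2 TPM in those of sgKAT6A. The replicate 2 libraries were high in both groups and the replicate 1 libraries low. Replicate 2 exceeded replicate 1 by 31.6-fold in EV and by 16.2-fold in sgKAT6A, and the whole range was 50.3-fold. Its range of log2(TPM + 1) over the 4 libraries was 4.65, and 53 of the 12603 genes tested, CD9 included, spanned at least that much. The log2 difference between the groups was 0.84 ± 1.92 (SE), and it was -1.16 without EV replicate 1, -0.98 without sgKAT6A replicate 2, 2.65 without sgKAT6A replicate 1 and 2.84 without EV replicate 2.

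Most monocyte markers were higher in the replicate 2 libraries, as CD9 was, but by very different amounts. For CD14, replicate 2 exceeded replicate 1 by 27.1-fold in EV and 17.9-fold in sgKAT6A. For FCGR1A these ratios were 1.20 and 1.39, and VCAN went the other way (0.87 and 0.60). The 9 monocyte genes (CD14, ITGAM, CSF1R, FCGR1A, S100A8, S100A9, FCN1, VCAN and CD68) summed to 569.95 and 1618 TPM in replicates 1 and 2 of EV and 1162 and 2492 TPM in those of sgKAT6A. All 9 were tested, 0 of them separated the groups, 0 were at 0 in every library, and all but VCAN were lowest in EV replicate 1 and highest in sgKAT6A replicate 2. Of the tetraspanins, 5 (CD9, CD37, CD53, CD63 and CD82) were also lowest in EV replicate 1 and highest in sgKAT6A replicate 2, an order that was counted after the values were seen and held by 23.2% of all genes tested. FCN1, a monocyte ficolin, was at 0.243 and 16.5 TPM with EV and 0.473 and 32.1 TPM with sgKAT6A, low in the replicate 1 libraries as CD9 was. The part of the monocyte genes in the tetraspanin values was not tested, and in bulk RNA more expressing cells and more RNA per cell cannot be told apart.

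The genes whose pattern over the 4 libraries was most like a member were looked up for the 3 members with the widest range. Likeness was the Euclidean distance between log2(TPM + 1) values centred on each gene's mean, over 9244 candidates whose mean reached 5 TPM. The closest gene to CD9 was CD14, the monocyte co-receptor for lipopolysaccharide, at a distance of 0.16, with 1.08 and 29.3 TPM in EV and 3.04 and 54.3 TPM in sgKAT6A. APOE, the lipid carrier apolipoprotein E, followed at 0.36, and CYP27A1, a mitochondrial sterol hydroxylase, at 0.37. CD14 was therefore nearly superimposed on CD9 in these 4 libraries. For CD37 the closest were UTS2, the peptide urotensin 2 (0.026), FZD2, a Wnt receptor (0.066), and TXNIP, the thioredoxin-interacting protein (0.070). TXNIP was at 46.2 and 52.1 TPM with EV and 56.7 and 96.8 TPM with sgKAT6A, with sgKAT6A replicate 2 apart from the rest as for CD37. For TSPAN32 the closest were GPR27, an orphan G protein-coupled receptor (0.13), and the non-coding genes LOC730183 (0.18) and LOC606724 (0.21). GPR27 was at 6.99 and 5.56 TPM with EV and 12.1 and 12.7 TPM with sgKAT6A, the same separation of the groups. With 4 libraries many genes lie close to any pattern, and these distances are descriptions.

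**Figure D3:**
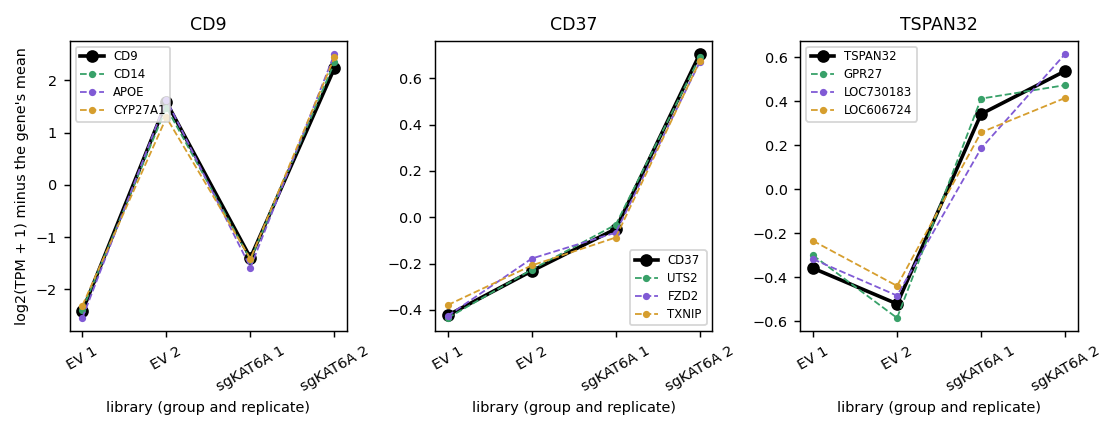
Centred log2(TPM + 1) (vertical axis) in the 4 libraries (horizontal axis) for CD9, CD37 and TSPAN32 (black) and the 3 genes nearest to each (dashed). Lines only join the values of a gene, since the libraries have no order. CD9 and CD14 are high in both replicate 2 libraries, CD37 is highest in sgKAT6A replicate 2, and TSPAN32 is high in both sgKAT6A libraries.

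Sequences upstream of the start sites were available for 4 of the 8 members, CD9, CD53, CD63 and CD82, in the RefSeq promoter table on GRCh38.p14. That source lists 4 entries for CD9, 2 for CD53, 8 for CD63 and 1 for CD82, and 1 entry per gene is described. CD9 and CD53 are shown because their transcripts had the widest and one of the narrowest ranges over the libraries (50.3-fold and 1.43-fold) and the base composition of their upstream windows differs. Both windows lie inside the GENCODE 29 spans of their genes, which begin farther upstream. The windows and motifs were chosen after the values were seen. Each is the 250 bases before the start site nearest to that of the principal GENCODE 29 transcript, 5′ to 3′ on the plus strand, with capitals marking 2 motifs on either strand. The first is GAGGAA, a core bound by the myeloid ETS factor PU.1. The second is GGGCGG, the GC box bound by SP1, and TATAAA was searched as well, in the same way.
CD9, chr12:6200150-6200399: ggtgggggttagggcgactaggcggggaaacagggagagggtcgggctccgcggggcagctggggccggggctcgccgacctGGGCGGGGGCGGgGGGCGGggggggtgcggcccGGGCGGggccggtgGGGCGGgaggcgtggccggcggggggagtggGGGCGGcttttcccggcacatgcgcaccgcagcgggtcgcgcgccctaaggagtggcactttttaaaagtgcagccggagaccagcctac
CD53, chr1:110872898-110873147: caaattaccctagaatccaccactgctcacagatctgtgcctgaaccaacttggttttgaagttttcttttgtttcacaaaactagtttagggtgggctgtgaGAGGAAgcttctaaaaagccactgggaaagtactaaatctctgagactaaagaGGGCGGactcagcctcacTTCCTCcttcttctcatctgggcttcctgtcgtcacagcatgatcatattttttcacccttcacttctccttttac

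The CD9 window has a GC content of 76.8% and holds 28 CG pairs and 6 GC boxes, some of them adjoining, with 0 matches to GAGGAA. The CD53 window has a GC content of 44.0%, with 2 CG pairs, 2 matches to GAGGAA (1 of them on the minus strand, read as TTCCTC) and 1 GC box. CD82 resembled CD9, with a GC content of 77.2%, 4 GC boxes and 0 matches to GAGGAA, and CD63 lay between, with a GC content of 60.4%, 1 match to GAGGAA and 1 GC box. Over the libraries the CD82 transcript ranged 2.02-fold and that of CD63 1.43-fold, against 50.3-fold for CD9. A link between window and range was not tested. None of the 4 windows held TATAAA. Of 34943 windows of the same length in the table, 23.6% held at least 1 match to GAGGAA, 42.5% at least 1 GC box and 10.8% at least 1 match to TATAAA, and the median GC content was 58.0%. These letters are a description and say nothing of binding.

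The positions of the genes are from GENCODE 29 on GRCh38, the build that the submitters' processing notes name as hg38, and not from the table. TSPAN32 (chromosome 11, 2301997 to 2318200), CD81 (chromosome 11, 2376177 to 2397419) and CD151 (chromosome 11, 832843 to 839831) lie near the same end of chromosome 11, on the plus strand, and CD82 (44564427 to 44620363) lies farther along it. CD9 (6199715 to 6238271) and CD63 (55725323 to 55729707, minus strand) are on chromosome 12, CD53 (110871188 to 110899928) on chromosome 1 and CD37 (49335171 to 49343335) on chromosome 19. The principal transcripts of the 8 genes have coding sequences of 657 bases (CD53) to 960 bases (TSPAN32) in 7 to 10 coding exons. TSPAN32 is the longest and the one with 10.

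TSPAN32 and CD81 are 58.0 kb apart. TSPAN32, chosen with its result known, separated the groups (log2 difference 0.88 ± 0.16, SE), and CD81 did not (-0.10 ± 0.31, SE). Whether these differences differ from each other was not tested. Within 50 kb of either gene the annotation holds 10 other genes, of which 6 were in the table and 3 were tested. C11orf21, which starts inside TSPAN32 on the opposite strand, was at 5.74 and 8.0 TPM with EV and 9.82 and 12.5 TPM with sgKAT6A (log2 difference 0.63 ± 0.22, SE). KCNQ1, a potassium channel gene 47.3 kb beyond CD81, was at 5.0 and 7.24 TPM with EV and 8.28 and 13.3 TPM with sgKAT6A (0.71 ± 0.30, SE). TSSC4, just beyond CD81, was lower in both sgKAT6A libraries, at 23.6 and 19.4 TPM against 26.6 and 25.0 TPM in EV (-0.26 ± 0.15, SE). None of the 3 passed (adjusted p = 0.784 by limma for each). Of the 3 neighbours tested, 2 therefore lay on the same side as TSPAN32 without overlap and 1 on the other, against 14.4% higher and 23.2% lower of all genes tested. Nothing is read from this count, since TSPAN32 was chosen with its result known and C11orf21 shares exonic bases with TSPAN32. CD81-AS1, which overlaps the start of CD81 and was not tested, was at 0.211 and 0.381 TPM with EV and 0.688 and 1.4 TPM with sgKAT6A.

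Some members share exonic bases with a gene on the opposite strand, and the labels do not state whether the libraries or the quantification kept strand. TSPAN32 and C11orf21 share 141 exonic bases, so part of the reads of either could belong to the other, and both had both sgKAT6A libraries above both EV libraries. CD151 shares 257 exonic bases with POLR2L, a subunit of RNA polymerases, which was at 156 and 121 TPM with EV and 116 and 81.0 TPM with sgKAT6A, highest in EV replicate 1 and lowest in sgKAT6A replicate 2, as was CD151. CD37 shares 319 exonic bases with TEAD2, which was at or below 0.217 TPM in every library. The share of reads exchanged between such pairs was not tested.

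**Figure D4:**
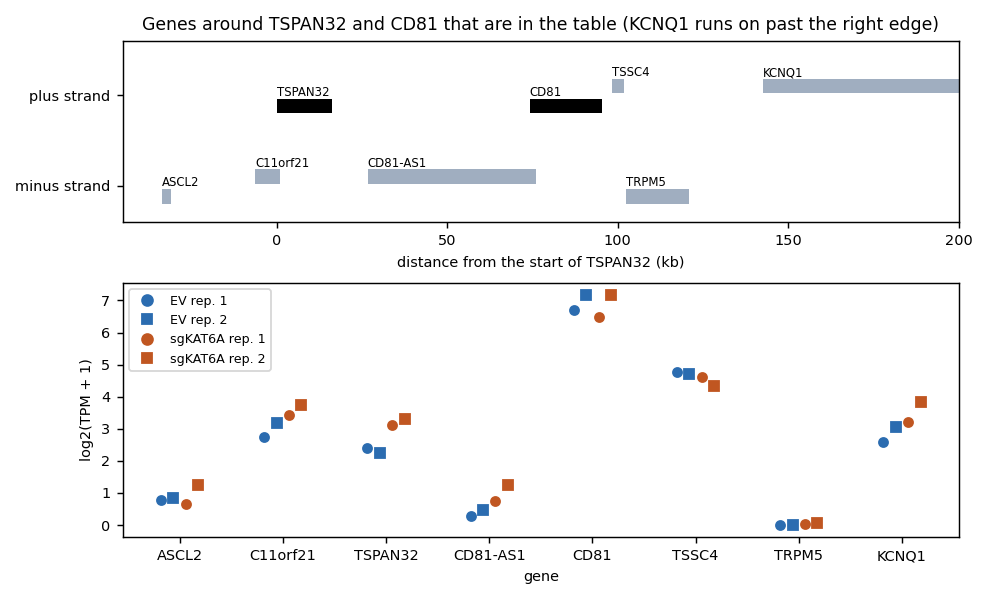
Upper panel: genes in the table around TSPAN32 and CD81 by distance from the start of TSPAN32 in kb, with the 2 tetraspanins in black. Lower panel: log2(TPM + 1) of each gene in the 4 libraries (blue EV, orange sgKAT6A, circle replicate 1, square replicate 2). TSPAN32, C11orf21 and KCNQ1 have both sgKAT6A libraries above both EV libraries, and CD81 is split by replicate number.

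Set against the rest of the family, the 8 genes held 93.2% to 94.3% of all tetraspanin TPM in each library. All 25 other human tetraspanin genes were in the table, 8 of them reached a mean of 1 TPM, and TSPAN8 and TSPAN19 were at 0 in every library. Of those 8, 0 passed with limma and 0 separated the groups in either direction (14.4% of all genes tested were higher and 23.2% lower), with a median log2 difference of -0.06 that was 0.07 for genes whose mean reached 5 TPM and changed sign with the library left out (-0.11 without EV replicate 1, 0.20 without sgKAT6A replicate 1). TSPAN3 was the most abundant, at 15.2 and 15.8 TPM with EV and 16.3 and 14.4 TPM with sgKAT6A, and was nearly flat. TSPAN17, which like TSPAN14 binds the protease ADAM10, was at 9.76 and 8.50 TPM with EV and 8.6 and 7.92 TPM with sgKAT6A. TSPAN14 was at 6.22 and 11.3 TPM with EV and 9.13 and 13.9 TPM with sgKAT6A, with replicate 2 the higher in both groups, and TSPAN31 at 8.48 and 13.9 TPM with EV and 10.9 and 13.8 TPM with sgKAT6A. TSPAN31 was thus low in the replicate 1 libraries of both groups.

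**Figure D5:**
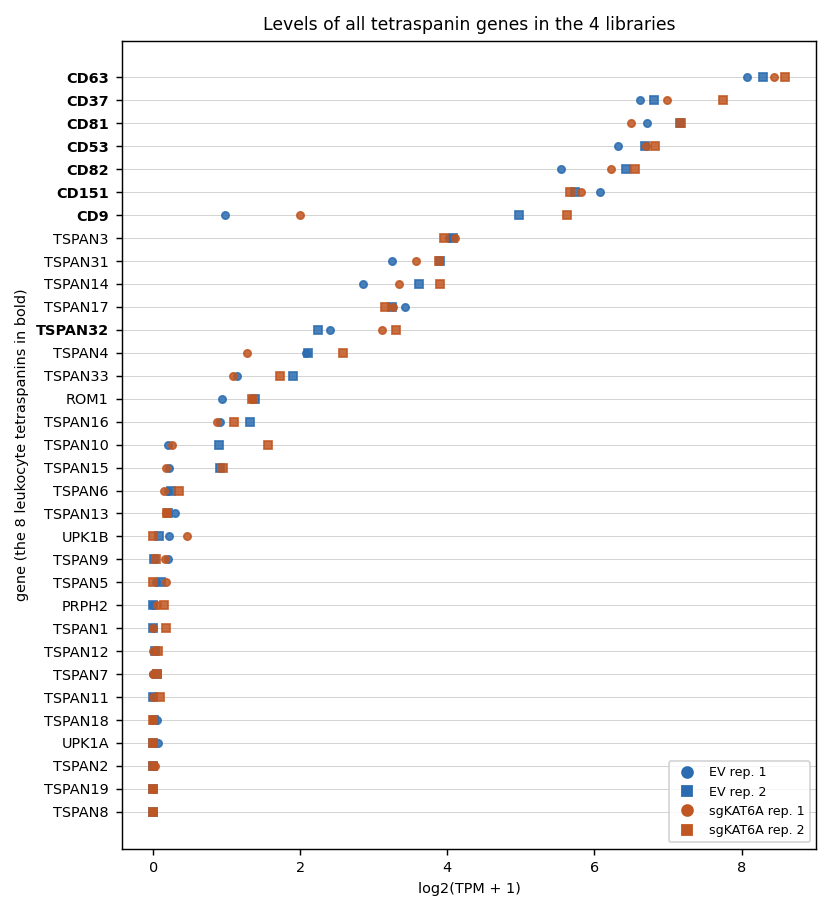
log2(TPM + 1) (horizontal axis) of all 33 tetraspanin genes in the 4 libraries (blue EV, orange sgKAT6A, circle replicate 1, square replicate 2), ordered by mean TPM with the 8 leukocyte tetraspanins in bold. Most genes outside the 8 lie near 0, and CD9 has the widest spread of the family.

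Proteins that bind tetraspanins were examined as a list of 23 genes, of which 19 were tested, 0 passed with limma, 4 were higher and 0 lower in sgKAT6A without overlap, where 14.4% and 23.2% of all genes tested were. The median log2 difference was 0.15, which moved to 0.03 without sgKAT6A replicate 2, to 0.30 without EV replicate 2 and to 0.05 without EV replicate 1. The 4 were IFITM1, CD44, ITGA7 and CD46. IFITM1, an interferon-induced restriction factor that associates with CD81, was at 0.963 and 2.17 TPM with EV and 2.19 and 8.28 TPM with sgKAT6A, with groups that nearly touched. CD44, the hyaluronan receptor, also had groups that nearly touched and was at 34.5 and 46.2 TPM with EV and 46.7 and 63.6 TPM with sgKAT6A. ITGA7, a laminin-binding integrin subunit, was at 25.4 and 25.9 TPM with EV and 30.9 and 30.6 TPM with sgKAT6A, the tightest replicates of the 4. CD46, a complement regulator, was at 30.4 and 31.7 TPM with EV and 33.7 and 34.8 TPM with sgKAT6A.

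Genes of the ESCRT machinery and of the formation of extracellular vesicles, which carry CD63, CD81 and CD9, were a list of 26. Of these, 25 were tested. With limma 0 passed, 1 was higher and 6 were lower in sgKAT6A without overlap (14.4% and 23.2% of all genes tested), and the median log2 difference was 0.04, or -0.07 without EV replicate 1. The largest of these separated differences were on the lower side. VPS25, an ESCRT-II subunit, was at 78.7 and 81.2 TPM with EV and 67.5 and 65.0 TPM with sgKAT6A (log2 difference -0.27 ± 0.11, SE). STAM, an ESCRT-0 subunit, was at 4.88 and 5.38 TPM with EV and 4.49 and 3.91 TPM with sgKAT6A. VPS4A, the ATPase that disassembles ESCRT-III, was at 49.3 and 48.4 TPM with EV and 46.4 and 41.1 TPM with sgKAT6A, and CHMP4A, an ESCRT-III subunit, at 52.2 and 54.8 TPM against 49.98 and 48.3 TPM. Whether the tetraspanins differed from either list was not tested.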

How the data were processed

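RNA-seq of MOLM-13 cells gave 4 libraries, 2 EV and 2 sgKAT6A, grouped by title. The authors deposited 1 table of TPM per gene symbol, and the submitters' processing notes name Salmon and hg38. No version, annotation or filter is stated in the labels. Each library sums to 1000000 TPM, and 6449 of the 27800 symbols were 0 throughout.

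Values were used as log2(TPM + 1), a scale that understates changes of low genes. Genes whose mean reached 1 TPM, 12603 in all, were tested between sgKAT6A and EV with limma 3.58.1 in R 4.3.3 (empirical Bayes moderation along the mean-variance trend; degrees of freedom 2 residual, 1.98 prior), two-sided, with Benjamini-Hochberg adjustment over all genes and a threshold of 0.05. An exact permutation test of 2 against 2 libraries cannot go below p = 0.333. Moderation draws each SE towards the spread typical of genes at that level. With 2 libraries per group, the SE without it equals the pooled SD within groups. That SD was above the SE given for CD9 (2.70), CD82 (0.47), CD81 (0.41), CD37 (0.39), CD53 (0.20) and CD151 (0.18). It was below the SE given for TSPAN32 and CD63 (0.13 each). The fit was checked on simulated data in which 200 genes were given 4-fold changes, with 5 runs per setting. At the spread of these libraries 47.4% of these changes were recovered on average, with 4.8 false calls. At 0.1 of that spread 99% were recovered, with 10.4 false calls. Changes of that size could therefore be missed here.

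Members and lists were chosen with earlier results of these data known. Named by rule were all members, KAT6A, other tetraspanins with a mean of at least 5 TPM, up to 4 genes each of the partner and vesicle lists with the largest separated difference, and the 3 nearest genes in pattern and neighbours within 50 kb described in the text. POLR2L, TEAD2, CD81-AS1, NKG7, FCN1, FCGR1A and VCAN were added after their values were seen. Of the marker genes, TRBC1 was not analysed here. Some genes of the partner and marker lists are not reported here, and the lists' counts and sums leave them out. Alternatives were the pseudocount, the filter, 3 scalings, the variance model, the replicate number as a block and each library left out. Gene classes were matched by symbol to RefSeq records. Protein sequences were not used here. Figures were drawn with matplotlib 3.10.9.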

Additional observations from a re-analysis of the deposited data

How the results depend on the processing

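The sign of the 8 tetraspanin differences was the same with either other pseudocount and under all 3 scalings; other filters, the variance model and the block cannot change these differences. Leaving out a library changed the sign of 4, CD9, CD81, CD82 and CD151. With a library left out, 4 to 7 tetraspanins were higher in sgKAT6A without overlap and 0 to 1 were lower. A lone library separates from 2 others more easily than 2 from 2. Of all genes tested, 19.5% to 39.3% were then higher and 33.1% to 44.2% lower, against 14.4% and 23.2% with all libraries. The median log2 difference of the 8 tetraspanins ran from 0.044 without EV replicate 1 to 0.60 without EV replicate 2. Such fits assume that the lone library of a group varies like the other group. The partner list median was 0.12 with a pseudocount of 5, 0.18 with median-of-ratios scaling, 0.19 with quantile normalization and 0.21 with rescaled protein-coding genes, and 0.031 to 0.30 with a library left out. The vesicle and ESCRT median was 0.076 with median-of-ratios scaling, 0.062 with quantile normalization and 0.106 with rescaled protein-coding genes. With a library left out it ran from -0.073 to 0.059.

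The labels do not pair the libraries. With the replicate number as a block, limma called 15 genes, and 2417 had an unadjusted p under 0.05, against 0 and 459 without it. Deviations of same-numbered libraries correlated at r = 0.45 across genes, which are not independent replicates. Counts at an unadjusted p under 0.05 were 933 with no filter and 178 (without EV replicate 1) to 1246 (without sgKAT6A replicate 1) with a library left out. Depth is unknown, so the precision of TSPAN32, of CD9 in the replicate 1 libraries and of other low values cannot be stated.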
